A study of Homo sapiens with 240 samples.

Results

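The NDUF genes are the nuclear genes whose symbols begin with NDUF, and they code for subunits of mitochondrial complex I and for factors that assemble it. They were followed in HEK 293T cells, a transformed human embryonic kidney line, through poly(A) RNA-seq given as TPM, reads scaled by transcript length and by library total. A symbol was taken where it reached 1 TPM in at least 3 libraries of a table. This left 48 NDUF symbols of 14231 genes, of which 45 are subunits, close relatives or assembly factors and 3 are antisense or readthrough symbols kept apart.

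The series holds 240 libraries in 80 groups of 3, in 5 tables that were normalized separately, so tests ran only within a table. The AMPK table holds wild-type (WT) cells and cells in which AMPK, the energy-sensing kinase, was knocked out (KO), each with vehicle (DMSO) or with 991, CCCP, Phen or Rot for 2, 4, 8 and 16 h. The other tables held DMSO and 991 only: FNIP1 knockout cells given back wild-type FNIP1 or SA5, a form with 5 AMPK phosphorylation sites changed to alanine; cells with or without TFEB and TFE3 (DKO, both knocked out); cells with or without ESRRA (KO); and cells with a control siRNA (siControl) or one against PGC1A (siPGC1A). The FNIP1 table ran to 16 h, and the tables for TFEB/TFE3, ESRRA and PGC1A ran to 24 h. All cells grew in DMEM with fetal bovine serum. 991 is a direct AMPK activator, CCCP is a protonophore that uncouples respiration, and Phen (phenformin) and Rot (rotenone) inhibit complex I. Doses are not given in the labels, nor is the number of clones behind each knockout. DMSO was sampled at 0 h only, so a compound cannot be told apart from the hours spent in culture, and the compounds of an arm share its DMSO libraries. Nothing in the labels says that replicates are separate cultures, so p-values measure the spread between these libraries, which may be technical. In bulk RNA, fewer cells of a type and less RNA per cell cannot be told apart.

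Complex I takes electrons from NADH, passes them through a flavin and a chain of iron-sulfur clusters to ubiquinone, and pumps protons across the inner mitochondrial membrane. Its matrix arm holds the nuclear-coded catalytic core, made of NDUFS and NDUFV subunits, while the core of the membrane arm is coded by mitochondrial DNA. Accessory subunits wrap this core and stabilise it, and assembly factors of the NDUFAF group help build the enzyme but leave before it is finished. In cells, PGC-1 coactivators, ERR receptors, NRF1 and GABP (an ETS factor) are known regulators of nuclear respiratory chain genes, and TFEB and TFE3 bind CLEAR elements in lysosomal genes.

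Members that the results turn on can be placed by the sequence just before their start. The windows below, from the RefSeq promoter table (GRCh38.p14), end at the base before the more upstream of the start in the deposited tables and the RefSeq start. They belong to the 3 genes that fell most with Phen (NDUFB1 at chr14:92121810-92121956, minus strand; NDUFAF8 at chr17:81239161-81239310, plus strand; NDUFA10 at chr2:240025403-240025552, minus strand), to NDUFS4, which was higher with all 4 compounds at 16 h (chr5:53560483-53560632, plus strand), to NDUFAB1, which fell with CCCP (chr16:23596319-23596468, minus strand), and to NDUFS6 (chr5:1801232-1801381, plus strand) and NDUFA13 (chr19:19516060-19516209, plus strand), whose levels were lower without TFEB and TFE3. Capitals mark matches to the NRF1 motif. Sequences run 5′ to 3′ on the strand of the gene.
NDUFB1: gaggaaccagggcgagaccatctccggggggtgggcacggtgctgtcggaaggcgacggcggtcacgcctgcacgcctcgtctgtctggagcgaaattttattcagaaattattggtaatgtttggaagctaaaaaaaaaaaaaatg
NDUFAF8: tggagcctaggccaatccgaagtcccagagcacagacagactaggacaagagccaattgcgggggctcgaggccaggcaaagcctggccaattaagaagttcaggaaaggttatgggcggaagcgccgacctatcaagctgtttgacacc
NDUFA10: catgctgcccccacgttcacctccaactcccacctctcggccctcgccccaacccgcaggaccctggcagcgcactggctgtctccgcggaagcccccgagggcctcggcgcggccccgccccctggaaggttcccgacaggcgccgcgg
NDUFS4: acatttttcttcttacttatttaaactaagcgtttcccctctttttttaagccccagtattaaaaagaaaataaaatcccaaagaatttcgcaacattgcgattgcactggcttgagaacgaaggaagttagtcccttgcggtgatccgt
NDUFAB1: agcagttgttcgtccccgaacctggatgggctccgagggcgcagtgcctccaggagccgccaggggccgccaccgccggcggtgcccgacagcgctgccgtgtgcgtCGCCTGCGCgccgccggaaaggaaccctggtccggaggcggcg
NDUFS6: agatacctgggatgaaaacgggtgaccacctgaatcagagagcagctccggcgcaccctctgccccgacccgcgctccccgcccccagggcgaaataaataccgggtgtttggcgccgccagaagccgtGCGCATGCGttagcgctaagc
NDUFA13: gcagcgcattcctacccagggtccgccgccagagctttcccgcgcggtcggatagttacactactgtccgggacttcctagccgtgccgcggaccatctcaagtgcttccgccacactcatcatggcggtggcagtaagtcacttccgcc

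Of the 45 members, 37 have a promoter in that table, each running from 250 bases before to 50 bases after the RefSeq start. For each member only the promoter nearest to the start in the deposited tables was kept. The 35116 promoters set beside them are all entries, with no filter on expression in these cells. The sets are thus unlike, and enrichment was not tested. The NRF1 motif (GCGCANGCG, either strand) was present in 10 of the 37, or 27.03%, and in 7.52% of the 35116 promoters. Those 10 were NDUFA5, NDUFA8, NDUFA9, NDUFA11, NDUFA12, NDUFAB1, NDUFAF5, NDUFB4, NDUFS6 and NDUFS7. The ETS motif (CCGGAAGT) was found in NDUFA13, where it lies past the end of the window printed, and in NDUFS1, and in 4.14% of all promoters. The long ERR motif (TCAAGGTCA) was in none of the 37 and in 0.353% of all, and the CLEAR motif (TCACGTGA) in none and in 0.9796%. The shorter ERR motif (AAGGTCA), which lies inside the long one, was in NDUFB4, NDUFS6 and NDUFS7 and in 3.92% of all. The E-box core (CACGTG), which lies inside the CLEAR motif, was in NDUFA7, NDUFA11, NDUFAF5 and NDUFS7 and in 7.26% of all. A match describes these letters in this window and is neither a binding site nor a cause.

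In untreated WT cells of the AMPK table, membrane arm subunits had the highest transcript levels and assembly factors the lowest. NDUFS5, an accessory subunit of the proximal membrane arm, led with 334, 320.0 and 332 TPM (329 ± 7.42 TPM, mean ± SD, n = 3). The 8 proximal membrane arm accessory subunits had a median of 172.3 TPM and the 11 of the distal membrane arm 135.8 TPM. The catalytic core had a median of 83.3 TPM, from 38.7 for NDUFV2, which carries an iron-sulfur cluster, to 119 for NDUFS8. The 8 NDUFAF factors had a median of 16.8 TPM and ran from 7.17 for NDUFAF7 to 81.4 for NDUFAF8, the factor needed to keep NDUFAF5 stable. At the bottom, NDUFA4L2, the paralogue of NDUFA4, stood at 0.302, 0.289 and 0.38 TPM. It passed the level filter only in the AMPK and TFEB/TFE3 tables, where 9 and 4 libraries reached 1 TPM. It passed through groups in which it was high, so its levels are given as a description with no test, while its calls stay in the counts. NDUFA4 itself is now counted with complex IV and NDUFAB1 is the mitochondrial acyl carrier protein. NDUFA3, NDUFA6, the antisense symbol NDUFA6-AS1 and the pseudogene NDUFAF4P1 did not reach the filter in any table. The tables list NDUFA3, NDUFA6 and NDUFA6-AS1 with several genomic copies each, so their levels are uncertain.

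Most members kept within a narrow range across the AMPK table. The ratio of the highest to the lowest of its group means had a median of 1.46 over the members, and it was lowest for NDUFB11 (1.19). It was highest for NDUFA4L2 (28.8), between group means of 0.0507 and 1.46 TPM, followed by 3.30 for NDUFB1, 2.95 for NDUFV3, 2.75 for NDUFAF8 and 2.46 for NDUFA10.

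Before the results, several libraries need naming. The targeted genes were still detected in every knockout arm: PRKAA1, a catalytic AMPK subunit, averaged 6.94 ± 0.599 TPM under DMSO with AMPK present and 2.55 ± 0.338 TPM in its absence, and ESRRA was at 4.90 ± 0.685 against 8.17 ± 0.143 TPM. TFEB (1.71 against 2.07 TPM) and TFE3 (7.75 against 9.78 TPM) were also detected in both arms, and PPARGC1A was at 0.0557 TPM with siPGC1A and 0.311 TPM with siControl. In the FNIP1 table, replicate 1 of SA5 under DMSO stood apart, with FNIP1 at 5.47 TPM against 179 and 172 TPM in the other libraries of its group. Counts for SA5 cells are given with and without it. In the AMPK table, the labels of the 3 WT libraries of Phen at 2 h and the 3 of CCCP at 4 h conflict on the compound or the time, and these were placed by their treatment and time tags. Of 7 kidney tubule and podocyte markers only LRP2 reached the filter, and of 9 markers of other cell types only COL1A1, with COL3A1 in 2 tables. Their summed levels ran from 0.461 to 4.32 TPM for the kidney list and from 1.77 to 8.42 TPM for the other, with UMOD at 0 in every library. LRP2 changed by -1.20 (log2) with 991, -1.03 with CCCP, -0.10 with Phen and -0.79 with Rot at 16 h in WT cells, and the part of such shifts in the members' changes was not tested.

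After 16 h of Phen, transcripts of most of complex I were lower in WT cells, while a few members were higher. Of 45 members, 35 fell and 4 rose in limma on log2(TPM + 1) at an adjusted p under 0.05, where 45.3% of all genes tested were higher and 34.9% lower. The median log2 change was -0.261 over the members and 0.073 over all genes. All changes below are on this log2(TPM + 1) scale, which understates changes of low genes, and are given with their standard error (SE).

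The largest fall was that of NDUFB1, a small subunit of the distal membrane arm (chr14:92116124-92121809, GRCh38). Its level under DMSO was 95.5, 86.4 and 101.4 TPM, and after 16 h of Phen 31.2, 30.2 and 36.1 TPM. Every Phen library lay under every DMSO library, a change of -1.51 ± 0.06, limma adjusted p = 1.0e-34. In KO cells NDUFB1 went from 89.6, 84.2 and 78.6 TPM to 30.1, 29.5 and 34.3 TPM, again with no overlap (-1.40 ± 0.06, limma adjusted p = 1.3e-32). The fall came late: NDUFB1 was at 88.1 ± 6.01 TPM at 2 h, 83.9 ± 3.61 TPM at 4 h and 68.1 ± 7.76 TPM at 8 h (n = 3 each).

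NDUFAF8, the assembly factor named above (chr17:81239311-81241298), was next. It went from 83.3, 78.4 and 82.5 TPM under DMSO to 36.1, 34.4 and 36.7 TPM with Phen. The groups were far apart, and the change was -1.17 ± 0.07, limma adjusted p = 7.4e-26. NDUFA10, an accessory subunit of the proximal membrane arm (chr2:239972632-240025402), went from 35.1, 36.5 and 35.7 TPM to 18.4, 19.1 and 19.6 TPM. All 3 Phen libraries were lower (-0.88 ± 0.03, limma adjusted p = 1.3e-37), and at 4 h the mean was still 33.8 ± 0.237 TPM.

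Against this fall, NDUFS4, an accessory subunit of the matrix arm whose loss causes Leigh syndrome (chr5:53560633-53683341), rose. Its level was 41.6, 39.1 and 40.9 TPM under DMSO and 67.3, 65.6 and 69.9 TPM after 16 h of Phen. No libraries overlapped, and the change was 0.72 ± 0.06, limma adjusted p = 8.6e-18. NDUFS4 was already at 48.4 ± 1.05 TPM at 2 h and climbed to 62.4 ± 5.76 TPM at 8 h. NDUFA4L2 was at 1.53, 1.38 and 1.46 TPM, above all 3 DMSO libraries given above, after means of 0.136 TPM at 2 h and 0.104 TPM at 4 h. NDUFAF5, a hydroxylase that acts on NDUFS7, went from 8.47, 8.81 and 8.13 TPM to 9.10, 9.54 and 9.47 TPM. Its small difference (0.13 ± 0.05, limma adjusted p = 0.023) was not called without replicate 2 (0.15) or replicate 3 (0.10) of every group, and it turned to -0.08 under quantile normalization. NDUFA12 was the remaining member called higher (0.10).

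**Figure D1:**
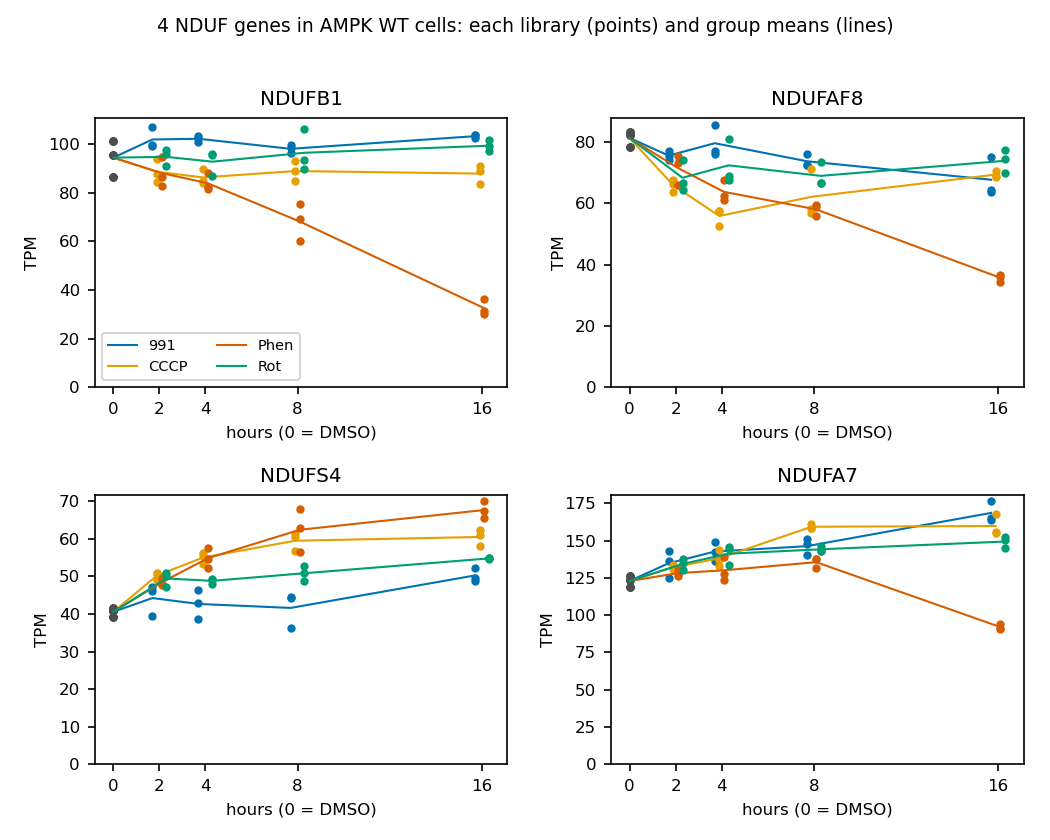
TPM of NDUFB1, NDUFAF8, NDUFS4 and NDUFA7 (vertical axes, from 0) against hours of compound (horizontal axis; 0 is DMSO) in AMPK WT cells; points are libraries and lines join means of 3 libraries. With Phen, NDUFB1 goes from 94.4 TPM under DMSO to 32.5 TPM at 16 h, while with Rot it stays near 99.3 TPM.

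By role, the fall with Phen took in each group of subunits, where 34.9% of all genes tested were lower and 45.3% higher. Of the 7 catalytic core subunits 6 fell and none rose (median -0.22). NDUFV1, the flavin-binding subunit that takes electrons from NADH, fell by 0.55 on the log2 scale and NDUFV2 by 0.39. NDUFS3 was at -0.36, NDUFS8 at -0.22, and NDUFS1, the largest core subunit, at -0.14, all called. NDUFS7, which carries the last iron-sulfur cluster, did not pass the test (-0.00 ± 0.07). Matrix arm accessory subunits fell in 6 of 8 cases (median -0.33), those of the proximal membrane arm in 7 of 8 (-0.37; NDUFC1 was not called) and those of the distal arm in 10 of 11 (-0.26; NDUFB9 was not called). NDUFAF factors were more mixed, with 4 of 8 lower and 1 higher (median -0.12). NDUFAF1, which helps build the membrane arm, was at -0.70 and NDUFAF4 at -0.64, against -0.05 for NDUFAF2, 0.06 for NDUFAF6 and 0.13 for NDUFAF7, which did not pass.

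Other parts of the same pathway were set beside them. Of 38 subunits of complexes II to V, 29 fell and 2 rose with Phen at 16 h (median -0.35). Of all genes tested, 45.3% were higher and 34.9% lower in this comparison. UQCRFS1, the Rieske subunit of complex III, changed by -1.43, and COX6C of complex IV by 0.29. Of 10 complex I assembly factors outside the NDUF names, 5 fell and 4 rose, not far from the shares of all genes. Their changes ran from TMEM261 (-1.39) to TIMMDC1 (0.48). Of 10 regulators tested, 8 rose and 2 fell. GABPB1, a subunit of GABP, rose by 1.23, while TFAM, which maintains mitochondrial DNA, was at -0.32 and PPRC1 at -0.36. The coactivator PPARGC1A was at 1.15, but its level is near the floor, with a mean of 0.311 TPM in siControl cells under DMSO. It may have passed the filter through groups in which it was high, so its value is a description, while its call stays in the count.

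Transcript length moved with this comparison. In the AMPK table, 29 of the 45 members have transcripts shorter than 1000 bases. With Phen at 16 h the 1746 genes of that length had a median of -0.288 and the 11871 longer genes 0.129, while the medians of the short and the longer members were -0.300 and -0.216. Its part in the members' fall was not tested. With libraries rescaled to the median ratio over all genes the counts were 2 higher and 38 lower, and with quantile normalization 4 and 27. Over all 13617 genes those fits called 5414 higher and 5475 lower, and 5707 and 5036. Percentages of all genes in this text come from the fit without rescaling, so they are no background for counts under either rescaling.

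The counts grew over the course. At 2 h of Phen 3 members were higher and 9 lower, where 23.7% of all genes tested were higher and 31% lower. At 4 h the counts were 4 and 17 (28.3% and 37.5% of all genes), and at 8 h 5 and 20 (36.8% and 36%). The shares at 2 and 4 h were near the background or below it and turned with the scaling. The median ratio gave 8 higher and 4 lower at 2 h and 7 and 5 at 4 h. Over all genes it gave 4184 and 3424, and 4676 and 4303. Quantile normalization gave 3 and 5 at 2 h, 6 and 12 at 4 h, and 10 and 16 at 8 h. Over all genes it gave 4108 and 3515, 4721 and 4209, and 5277 and 4636. At 16 h, 77.8% of the members were lower against the 34.9% of all genes given above.

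With Rot, the other complex I inhibitor, 26 of 45 members did not pass the test at 16 h. In WT cells 8 members rose and 11 fell, where 36.2% of all genes tested were higher and 29.2% lower. The median was -0.030 over the members and 0.025 over all genes. The median ratio gave 6 higher and 15 lower, and 4520 and 4364 over all genes. NDUFS4 stood at 54.9, 54.8 and 54.5 TPM, above its DMSO libraries (0.42 ± 0.06, limma adjusted p = 1.2e-08). NDUFA7, a matrix arm subunit, went from 119, 126 and 124 TPM to 145, 153 and 150.5 TPM. Its Rot libraries were all higher (0.28 ± 0.04, limma adjusted p = 4.5e-08). NDUFAF3, which works with NDUFAF4 in early assembly, went from 58.1, 71.9 and 61.8 TPM to 70.03, 73.6 and 74.98 TPM; these groups overlapped (0.19 ± 0.06, limma adjusted p = 0.0044), and the call was lost without replicate 1 (0.15) or replicate 3 (0.15) of every group.

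Among the falls with Rot, NDUFAF1 went from 15.9, 14.7 and 15.03 TPM to 12.1, 12.1 and 12.01 TPM, all lower (-0.31 ± 0.06, limma adjusted p = 1.1e-06). NDUFA11, a membrane arm subunit at the junction with complex III in supercomplexes, went from 234, 241 and 236 TPM to 182, 208 and 197 TPM. No libraries overlapped (-0.28 ± 0.05, limma adjusted p = 5.2e-06). NDUFB11, a distal arm subunit coded on the X chromosome, went from 111, 99.01 and 103 TPM to 86.1, 88.3 and 93.1 TPM, also without overlap (-0.22 ± 0.05, limma adjusted p = 5.1e-05).

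Phen and Rot were also set directly against each other at 16 h, without the DMSO libraries, and differed in most members. Relative to Rot, 31 members were lower with Phen and 4 higher, where 40.1% of all genes tested were higher and 29.3% lower, and the median difference was -0.253 over the members against 0.057 over all genes. NDUFB1 was at 99.2, 101.9 and 96.97 TPM with Rot, clear of its Phen libraries (-1.59 ± 0.06, limma adjusted p = 1.4e-35), and NDUFAF8 at 69.8, 74.4 and 77.6 TPM (-1.03 ± 0.07, limma adjusted p = 1.5e-22). In the other direction NDUFS4 was higher with Phen by 0.30 ± 0.06, limma adjusted p = 1.6e-05. NDUFA4L2 was at 0.389, 0.559 and 0.487 TPM with Rot. For NDUFS4 the Phen libraries were all above the Rot libraries, and NDUFA4L2 is given as a description only. Genes shorter than 1000 bases had a median difference of -0.151 and longer genes 0.089, and the part of length was not tested. The doses are not given, so the pair cannot be read as matched.

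More members differed between both inhibitors at later times. At 2 h 1 member was higher and 1 lower with Phen (2.95% and 2.92% of all genes), at 4 h 2 and 13 (11.1% and 21.8%), and at 8 h 6 and 16 (25.3% and 30.5%). The median ratio gave 1 and 0, 5 and 3, and 9 and 14 at these times, and 33 lower at 16 h. Over all genes it gave 490 and 368, 2357 and 2183, and 4077 and 3663, and 4573 lower at 16 h. Quantile normalization gave 10 and 15 at 8 h, and 3954 and 3633 over all genes. Against CCCP, Phen at 16 h gave 6 members higher and 23 lower, where 35.9% of all genes tested were higher and 33.8% lower. Of 8 comparisons fitted between compounds, Phen against Rot and against CCCP at each time, 5 are given, with p-values adjusted over all genes within each.

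**Figure D2:**
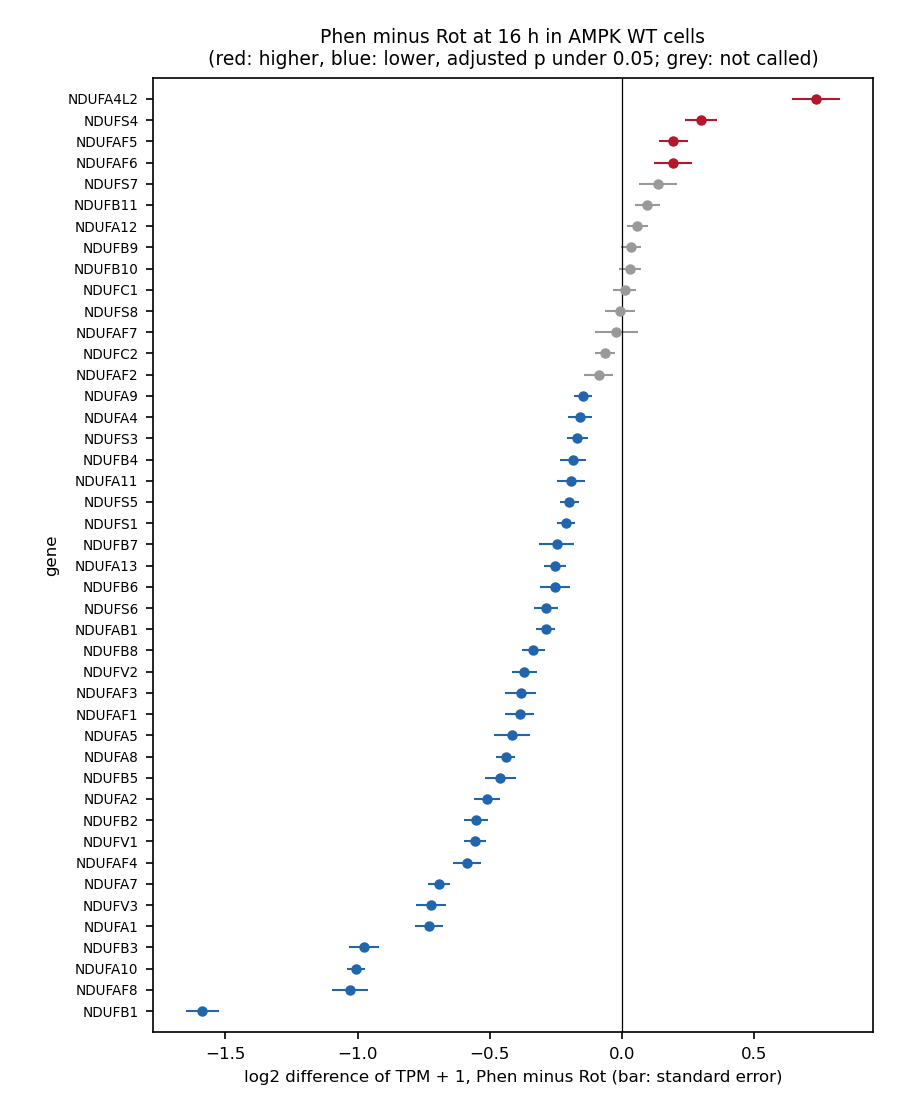
Log2 difference of TPM + 1 between Phen and Rot at 16 h in AMPK WT cells (horizontal axis) for 44 NDUF genes (vertical axis, sorted); bars are standard errors, and colour marks an adjusted p under 0.05. NDUFB1 lies lowest at -1.59 and NDUFA4L2 highest at 0.73, and most of the genes shown are called lower.

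CCCP at 16 h split the members. In WT cells 9 rose and 20 fell, where 44.1% of all genes tested were higher and 26.6% lower. The medians were -0.097 for members and 0.091 for all genes. The median ratio gave 7 and 33, and 4750 and 4700 over all genes. NDUFS4 reached 60.9, 58.05 and 62.3 TPM (0.56 ± 0.06, limma adjusted p = 7.4e-13) and NDUFAF3 85.7, 86.3 and 82.7 TPM (0.41 ± 0.06, limma adjusted p = 1.0e-08), and NDUFA4L2 was at 1.01, 0.952 and 0.916 TPM. For NDUFS4 and NDUFAF3 every CCCP library was above every DMSO library, and NDUFA4L2 is given as a description only. NDUFAF1 fell to 10.4, 10.9 and 10.6 TPM (-0.48 ± 0.06, limma adjusted p = 4.9e-12). NDUFAB1 went from 166, 168 and 167 TPM to 124, 126 and 126 TPM (-0.41 ± 0.04, limma adjusted p = 9.1e-17), and NDUFA11 to 191, 189 and 171 TPM (-0.37 ± 0.05, limma adjusted p = 4.5e-09). These groups did not overlap either. In the catalytic core NDUFS1 (0.16) and NDUFV1 (0.14) rose and NDUFS3 (-0.29) fell, while NDUFS7 (0.07), NDUFS8 (-0.07) and NDUFV2 (-0.05) did not pass. Proximal and distal membrane arm subunits fell in 5 of 8 and 6 of 11 cases.

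With 991 for 16 h, WT cells of the AMPK table had 10 members higher and 14 lower, where 41.9% of all genes tested were higher and 26.9% lower. The medians were -0.048 and 0.071. The median ratio gave 6 and 28, and 4729 and 4569 over all genes. NDUFAF3 rose to 86.5, 88.7 and 92.97 TPM (0.48 ± 0.06, limma adjusted p = 1.1e-10), NDUFA7 to 165, 176 and 164 TPM (0.45 ± 0.04, limma adjusted p = 4.6e-15) and NDUFS4 to 49.6, 48.8 and 52.3 TPM (0.30 ± 0.06, limma adjusted p = 1.5e-05). All 9 of these 991 libraries were above the DMSO libraries of the same gene. NDUFAF6, which is needed for assembly of the ND1 module, fell from 7.34, 8.23 and 7.39 TPM to 5.92, 5.48 and 6.44 TPM (-0.32 ± 0.07, limma adjusted p = 8.6e-05). NDUFB8, a distal arm subunit often used as a marker of complex I, fell from 308, 283 and 292 TPM to 248, 235 and 248 TPM (-0.27 ± 0.04, limma adjusted p = 1.5e-07), and NDUFA11 to 184, 202 and 199.98 TPM (-0.28 ± 0.05, limma adjusted p = 3.8e-06). No libraries overlapped in these 3. Of the core, NDUFS1 (0.10) rose and NDUFS3 (-0.25) and NDUFS8 (-0.23) fell, while NDUFS7 (-0.14), NDUFV1 (-0.02) and NDUFV2 (-0.03) did not pass.

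In the core with Rot, NDUFS1 (0.08) rose and NDUFS3 (-0.19) and NDUFS8 (-0.21) fell. NDUFS7 (-0.14), NDUFV1 (0.01) and NDUFV2 (-0.02) did not pass. Among assembly factors, NDUFAF8 had 991 libraries at 64.3, 63.8 and 75.1 TPM (-0.26 ± 0.07, limma adjusted p = 5.0e-04), all under DMSO, and NDUFAF3 with Phen was at 54.1, 55.6 and 57.1 TPM (-0.19 ± 0.06, limma adjusted p = 0.0029), under DMSO, while 991 and CCCP were above it. NDUFA7 was likewise lower with Phen, at 90.7, 91.5 and 93.9 TPM (-0.41 ± 0.04, limma adjusted p = 3.5e-14), in contrast to its rise with 991 and Rot. NDUFAF2, a chaperone of late assembly, passed in none of the 4 compounds (-0.05, -0.05, -0.05 and 0.04 for 991, CCCP, Phen and Rot). NDUFAF4 was at -0.22, -0.23, -0.64 and -0.06 in the same order, called for all but Rot, and NDUFAF7 at 0.29, 0.03, 0.13 and 0.15, called for 991.

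The symbols kept apart moved as follows. NDUFB2-AS1, transcribed opposite to NDUFB2, went from 3.31, 2.41 and 2.68 TPM to 0.409, 0.585 and 0.538 TPM with Phen at 16 h (-1.32 ± 0.13, limma adjusted p = 4.5e-15), and was lower with 991 (-1.03), CCCP (-0.66) and Rot (-0.91). Its span (chr7:140695336-140697077) overlaps the start of NDUFB2 (chr7:140696681-140706646). Without a stated strand, reads in the shared part cannot be told apart. NDUFV2-AS1 reached 1 TPM in only 3 libraries of the table, so no change is given for it. NDUFC2-KCTD14, a readthrough of NDUFC2, was at 49.5, 48.4 and 47.4 TPM under DMSO, near the level of NDUFC2 (61.2, 58.7 and 57.7 TPM), and shares its reads, so values of NDUFC2 are uncertain.

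**Figure D3:**
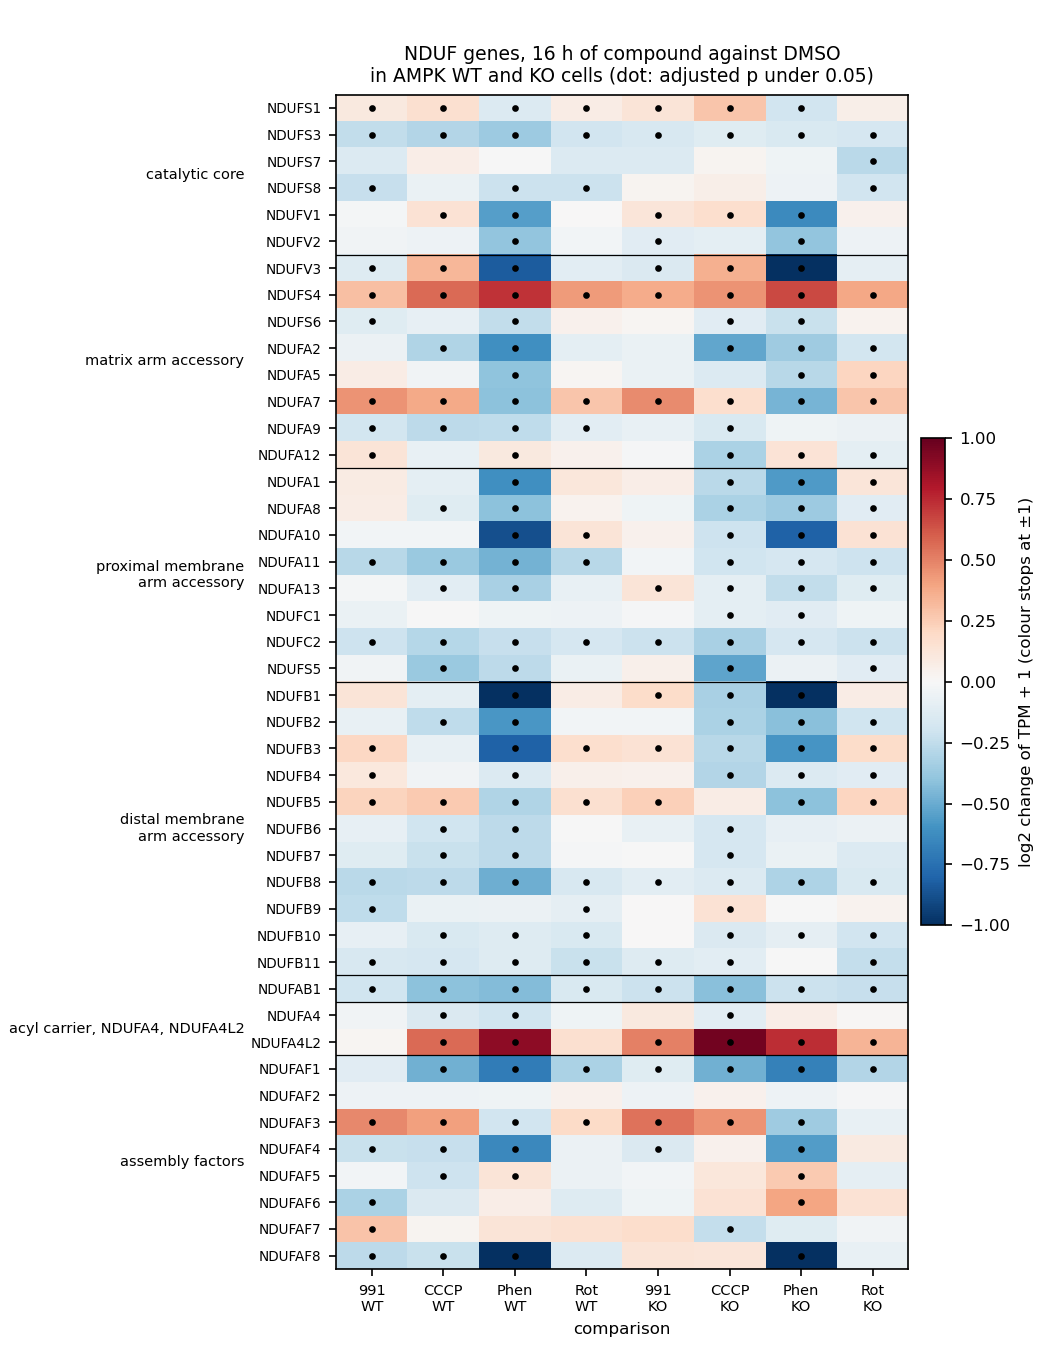
Log2 change of TPM + 1 at 16 h against DMSO for 44 NDUF genes (rows, by role) in AMPK WT and KO cells with each compound (columns); colour gives the change and stops at 1 either way, and a dot marks an adjusted p under 0.05. In the WT Phen column NDUFB1 is lowest at -1.51, and NDUFS4 is called higher in all 8 columns.

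In cells without AMPK, too, most members were lower with Phen. KO cells had 5 members higher and 29 lower with Phen at 16 h, where 41.2% of all genes tested were higher and 37.7% lower, with a median of -0.165 (quantile normalization gave 8 and 22). CCCP gave 9 and 26 (39.6% and 29.3% of all genes), 991 gave 11 and 9 (34.8% and 27.1%), and Rot 9 and 17 (35.3% and 27.9%). Quantile normalization gave 11 and 19 for CCCP, 14 and 7 for 991 and 10 and 11 for Rot. Over all genes it called 5583 higher and 4863 lower with Phen and 4730 and 4513 with CCCP. With 991 it called 4401 and 3951, and with Rot 4507 and 3972. The median ratio gave 8 and 11 for 991, and 4181 and 4187 over all genes. The test that bears on AMPK is the difference between the responses of KO and WT cells.

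For Phen, 9 members had a higher and 1 a lower response in KO than in WT cells, where 3.38% of all genes tested were higher and 10.5% lower. NDUFA11 fell in WT cells from the DMSO level above to 172, 169 and 171 TPM (-0.47), and in KO cells from 235, 226 and 219 TPM to 199, 203 and 204 TPM (-0.17). Both falls were without overlap and differed by 0.31 ± 0.07, limma adjusted p = 0.0027. NDUFAF6 with Phen was at 8.65, 7.99 and 7.50 TPM in WT cells, overlapping DMSO, and in KO cells went from 6.69, 6.72 and 6.06 TPM to 9.71, 8.17 and 8.77 TPM, all higher; the difference was 0.33 ± 0.10, limma adjusted p = 0.018. NDUFV3, an accessory subunit beside the flavin site, went from 32.4, 33.1 and 34.1 TPM to 17.1, 18.3 and 19.3 TPM in WT and from 43.3, 41.05 and 41.2 TPM to 18.1, 19.9 and 19.9 TPM in KO cells, clear falls that differed by -0.25 ± 0.08, limma adjusted p = 0.028. The difference was not called without replicate 2 or 3 of every group for NDUFA11 (0.28 either way) and NDUFAF6 (0.36 and 0.28), nor, for NDUFV3, without any of the 3 (-0.28 to -0.21). The count of 9 fell to 3 without replicate 2 and to 1 without replicate 3.

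For 991, 5 members had a higher and 0 a lower response in KO cells (4.96% and 10% of all genes). The median ratio gave 10 and 0, and 934 and 926 over all genes. Quantile normalization gave 6 and 1, and 933 and 1058 over all genes. NDUFAF8 with 991 overlapped its DMSO level in KO cells, going from 87.4, 81.8 and 88.8 TPM to 86.5, 97.6 and 97.9 TPM, while it fell in WT cells, and the difference was 0.39 ± 0.10, limma adjusted p = 0.0028. NDUFA4L2 went from 0.33, 0.172 and 0.106 TPM to 0.808, 0.541 and 0.765 TPM in KO cells, all higher, and stood at 0.237, 0.458 and 0.329 TPM in WT cells, overlapping DMSO. The call of NDUFAF8 was lost without replicate 2 of every group (0.31), and the count was 2 without replicate 2 and 3 without replicate 3.

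For CCCP, 7 members had a higher and 9 a lower response in KO cells (10.5% and 17.7% of all genes). The median ratio turned this split to 11 and 4, and quantile normalization gave 7 and 11. Over all genes they gave 1825 and 1769, and 1755 and 2114. NDUFB4, a distal arm subunit, was at 134, 127 and 136 TPM with CCCP and 134, 136 and 138 TPM under DMSO in WT cells, which overlapped, and went from 135, 138 and 133 TPM to 117, 105 and 109.6 TPM in KO cells, all lower (-0.25 ± 0.07, limma adjusted p = 0.0039). NDUFA12, which sits on the matrix arm, went from 129, 126 and 129 TPM to 117, 123 and 124 TPM in WT and from 145, 144 and 142 TPM to 113, 118 and 116 TPM in KO cells. The drop was the larger in KO cells (-0.24 ± 0.06, limma adjusted p = 7.2e-04). NDUFA4L2 was at 1.19, 1.26 and 1.60 TPM in KO cells, above DMSO as in WT cells. NDUFAF8 reached 91.1, 96.2 and 92.997 TPM, also above its DMSO libraries, where WT cells had 70.7, 68.5 and 69.1 TPM, below them (0.34 ± 0.10, limma adjusted p = 0.0046). The call of NDUFAF8 was lost without replicate 2 of every group (0.30), and the count of 16 called fell to 7 without replicate 2 and 9 without replicate 3. For Rot, 0 members passed in limma (1.01% and 0.962% of all genes higher and lower). At an unadjusted p under 0.05 there were 1923 of all 13617 genes and 7 of the 45 members. With the replicate number as a block, 1 member passed.

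Under DMSO, KO cells differed from WT cells in 20 members. Of the 45 members 5 were higher and 15 lower, where 16.2% of all genes tested were higher and 22.7% lower, with medians of -0.054 and -0.023. The median ratio gave 7 and 8, and 3101 and 2503 over all genes. Without replicate 3 of every group, 9 members were lower. NDUFA5, an accessory subunit of the matrix arm, was at 13.6, 13.3 and 13.8 TPM in WT and 9.34, 8.75 and 9.75 TPM in KO cells (-0.50 ± 0.07, limma adjusted p = 7.5e-09). NDUFA1, a small membrane arm subunit coded on the X chromosome, was at 299, 263 and 298 TPM and 214, 192 and 205 TPM (-0.49 ± 0.05, limma adjusted p = 3.7e-12). Both were lower in every KO library. NDUFV3 (0.33 ± 0.06, limma adjusted p = 2.7e-06) and NDUFA10, at 42.4, 42.6 and 41.9 TPM in KO cells (0.24 ± 0.03, limma adjusted p = 7.3e-09), were higher in every KO library. As the number of clones is not given, clone and genotype cannot be told apart.

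Of the 5 arm differences under DMSO, that between DKO and WT cells for TFEB and TFE3 had the most members called, with 28 of 45 lower and 0 higher. Of all genes tested, 37.6% were higher and 13.7% lower, and the medians were -0.191 for members and 0.110 for all genes. NDUFB1 was at 131, 130.0 and 131 TPM in WT and 83.96, 89.3 and 87.9 TPM in DKO cells (-0.58 ± 0.06, limma adjusted p = 1.6e-09). NDUFA13, also known as GRIM-19, was at 326, 324 and 333 TPM and 216, 227 and 221 TPM (-0.57 ± 0.05, limma adjusted p = 5.2e-10). Both genes were lower in every DKO library. By role, 4 of 7 core subunits, 5 of 8 matrix arm, 7 of 8 proximal and 8 of 11 distal accessory subunits and 3 of 8 NDUFAF factors were lower, with medians from -0.13 for the NDUFAF factors to -0.22 for the core. Of 38 subunits of complexes II to V, 31 were lower and 0 higher (median -0.20). The median ratio gave 0 and 39 for the members and quantile normalization 0 and 29. Over all 13746 genes they gave 3162 and 3464, and 3264 and 2942. The median ratio moved the median of all genes from 0.110 to -0.003 and that of the members from -0.191 to -0.330. Genes shorter than 1000 bases had a median of -0.030 and longer genes 0.124, while LRP2 of the kidney list differed by -0.46 and COL1A1 and COL3A1 of the other list by -0.21 and -0.94. The part of length and of such markers in the members' difference was not tested.

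ESRRA KO cells showed a smaller difference under DMSO. Of 44 members 1 was higher and 16 lower, where 6.71% of all genes tested were higher and 14.7% lower, with medians of -0.100 and -0.041. NDUFA1 was at 329, 306 and 321 TPM in WT and 257, 225 and 257 TPM in KO cells (-0.37 ± 0.06, limma adjusted p = 6.5e-05). NDUFAF8 was at 71.7, 74.1 and 68.7 TPM and 58.1, 48.4 and 59.1 TPM (-0.37 ± 0.07, limma adjusted p = 1.9e-04). NDUFA7 was the member called higher, with 104, 119 and 115 TPM in WT and 130.0, 154 and 139 TPM in KO cells (0.32 ± 0.06, limma adjusted p = 1.5e-04). No groups overlapped in these 3 genes. Complexes II to V had 1 of 38 higher and 19 lower. Without replicate 1 of every group 7 members were lower. The median ratio and quantile normalization each gave 2 members higher and 11 lower, with member medians of -0.059 and -0.066. Over all genes they gave 1275 and 1323, and 1223 and 1255.

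With siPGC1A the members stayed near siControl: 5 of 44 were higher and 2 lower, where 14.3% of all genes tested were higher and 9.89% lower. Quantile normalization gave 4 and 4, and 1508 and 1479 over all genes. NDUFV3 was at 43.05, 43.1 and 45.2 TPM with siControl and 58.5, 59.7 and 57.7 TPM with siPGC1A (0.41 ± 0.05, limma adjusted p = 1.2e-06). NDUFA7 was at 119, 123 and 114 TPM and 151, 138 and 136 TPM (0.25 ± 0.06, limma adjusted p = 0.0019). Both were higher in every siPGC1A library. NDUFB3, a distal arm subunit, was at 83.9, 88.98 and 84.6 TPM and 74.02, 72.9 and 80.6 TPM (-0.18 ± 0.04, limma adjusted p = 0.004), and NDUFA9, a matrix arm subunit near the quinone site, at 64.2, 61.6 and 69.1 TPM and 57.3, 57.2 and 59.7 TPM (-0.16 ± 0.04, limma adjusted p = 0.01). Both were lower in every siPGC1A library. The call of NDUFB3 was lost without replicate 1 or 2 of every group (-0.18 and -0.12), that of NDUFA9 without replicate 1 or 3 (-0.16 and -0.13), and without replicate 2 the members called numbered 3. PPARGC1A itself was below 1 TPM in the siControl libraries.

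SA5 cells under DMSO had 2 of 44 members higher than WT FNIP1 cells and 0 lower, where 1.69% of all genes tested were higher and 8.64% lower. NDUFS3, a core subunit, was at 75.3, 77.8 and 83.7 TPM in WT and 164, 86.8 and 90.9 TPM in SA5 cells (0.46 ± 0.14, limma adjusted p = 0.042). NDUFA7 was at 121, 122 and 123 TPM and 222, 139 and 143 TPM (0.43 ± 0.12, limma adjusted p = 0.03). In both genes the first SA5 library is far above the other pair, and NDUFB1 was at 398, 148 and 143 TPM. Without that library 0 members passed, with NDUFS3 at 0.17 and NDUFA7 at 0.21, and 0 passed without any 1 replicate number of every group. Without it and replicate 1 of SA5 at 8 h of 991, which also stands apart, 2 were higher and 1 lower. In this comparison genes shorter than 1000 bases had a median of 0.069 and longer genes -0.331, and the part of length was not tested. The median of all genes was -0.296 here and 0.005 with the median ratio, where the members' median went from 0.159 to 0.578. All these medians include the library that stands apart. Without it, and with no rescaling, they were 0.013 for members and -0.055 for all genes.

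**Figure D4:**
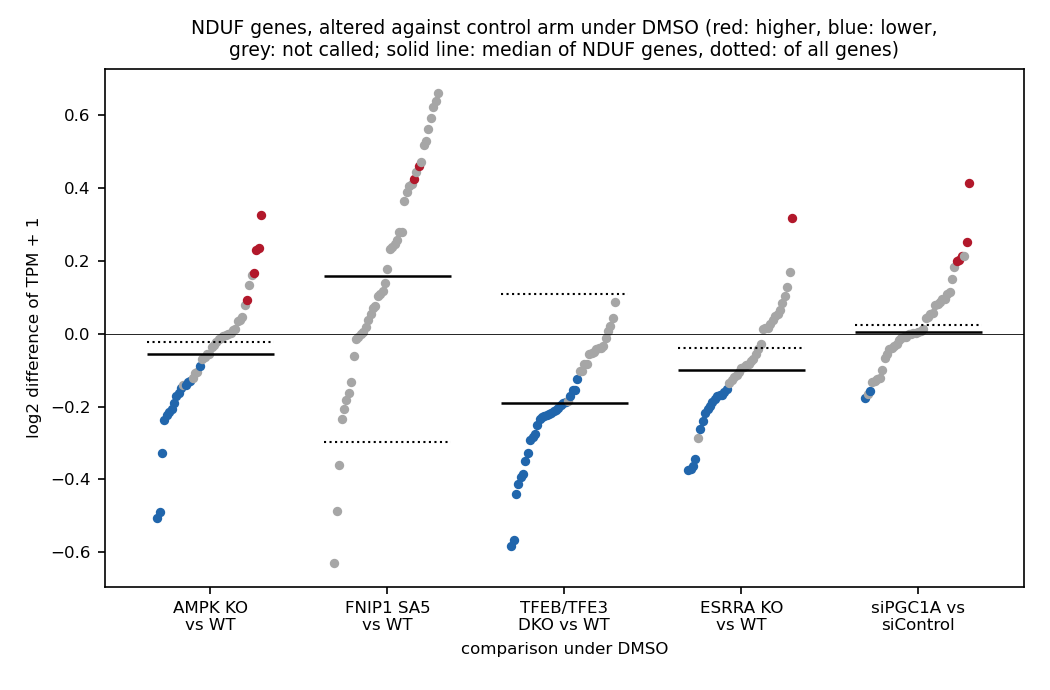
Log2 difference of TPM + 1 under DMSO (vertical axis) between the altered and the control arm of each table (horizontal axis); each point is an NDUF gene, coloured where its adjusted p is under 0.05, with the median of the NDUF genes (solid) and of all genes (dotted). In the TFEB/TFE3 comparison 28 genes are called lower and the NDUF median (-0.191) lies under that of all genes (0.110).

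The 991 response could be compared across 5 control arms, each with DMSO libraries of its own. At 16 h, members called higher and lower numbered 10 and 14 in AMPK WT (above), 4 and 3 in FNIP1 WT (11.6% and 4.87% of all genes), 5 and 13 in TFEB/TFE3 WT (41.1% and 17.9%), 4 and 11 in ESRRA WT (31.2% and 15%) and 5 and 21 in siControl cells (44.6% and 12.4%). In the last 4 the median ratio gave 0 and 2, 0 and 29, 2 and 21, and 0 and 36. Over all genes that scaling gave 1192 and 1245 of 13317 in FNIP1 WT, and 3715 and 4148 of 13746 in TFEB/TFE3 WT. In ESRRA WT it gave 2815 and 3073 of 13378, and in siControl cells 3004 and 3467 of 13404. Quantile normalization gave 6 and 11 in TFEB/TFE3 WT, 6 and 9 in ESRRA WT and 4 and 19 in siControl cells. Over all genes it gave 3664 and 3511, 2819 and 2674, and 2860 and 2671 in these arms.

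Across these arms, 11 members were called lower in at least 3 of 5 and 5 were called higher in at least 3. Of the 12865 genes tested in all 5 tables, 12.1% were called lower and 33.3% higher in at least 3. Of the members, 14 were called lower in none and 4 were called in both directions in different arms. NDUFA9, NDUFAB1, NDUFAF4, NDUFB8 and NDUFC2 were lower in 4 arms, and NDUFA11, NDUFB9, NDUFB11, NDUFS3, NDUFS5 and NDUFS6 in 3. NDUFA7 was higher in all 5, NDUFAF3 and NDUFB5, a distal arm subunit, in 4, and NDUFS4 in 3, whereas under the median ratio no member, NDUFA7 included, was called higher in FNIP1 WT, TFEB/TFE3 WT or siControl cells. These members are spread over the matrix arm, the membrane arm and the assembly factors.

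NDUFAF4 is given here as an example chosen after its values were seen. Its means under DMSO and at 16 h of 991 were 18.4 ± 0.626 TPM and 15.6 ± 0.0688 TPM in AMPK WT, and 17.7 ± 1.04 TPM and 12.5 ± 0.809 TPM in FNIP1 WT cells. In TFEB/TFE3 WT cells it went from 21.8, 24.6 and 23.4 TPM to 14.4, 12.5 and 14.2 TPM (-0.73 ± 0.08, limma adjusted p = 1.0e-08), with no overlap. In siControl cells it did not pass, with 13.7, 12.1 and 12.03 TPM against 10.2, 11.5 and 12.3 TPM (-0.14 ± 0.09), and these groups overlapped. NDUFA7 changed by 0.45 ± 0.04 in AMPK WT, 0.39 ± 0.12 in FNIP1 WT, 0.17 ± 0.06 in TFEB/TFE3 WT, 0.32 ± 0.06 in ESRRA WT and 0.14 ± 0.06 in siControl cells.

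**Figure D5:**
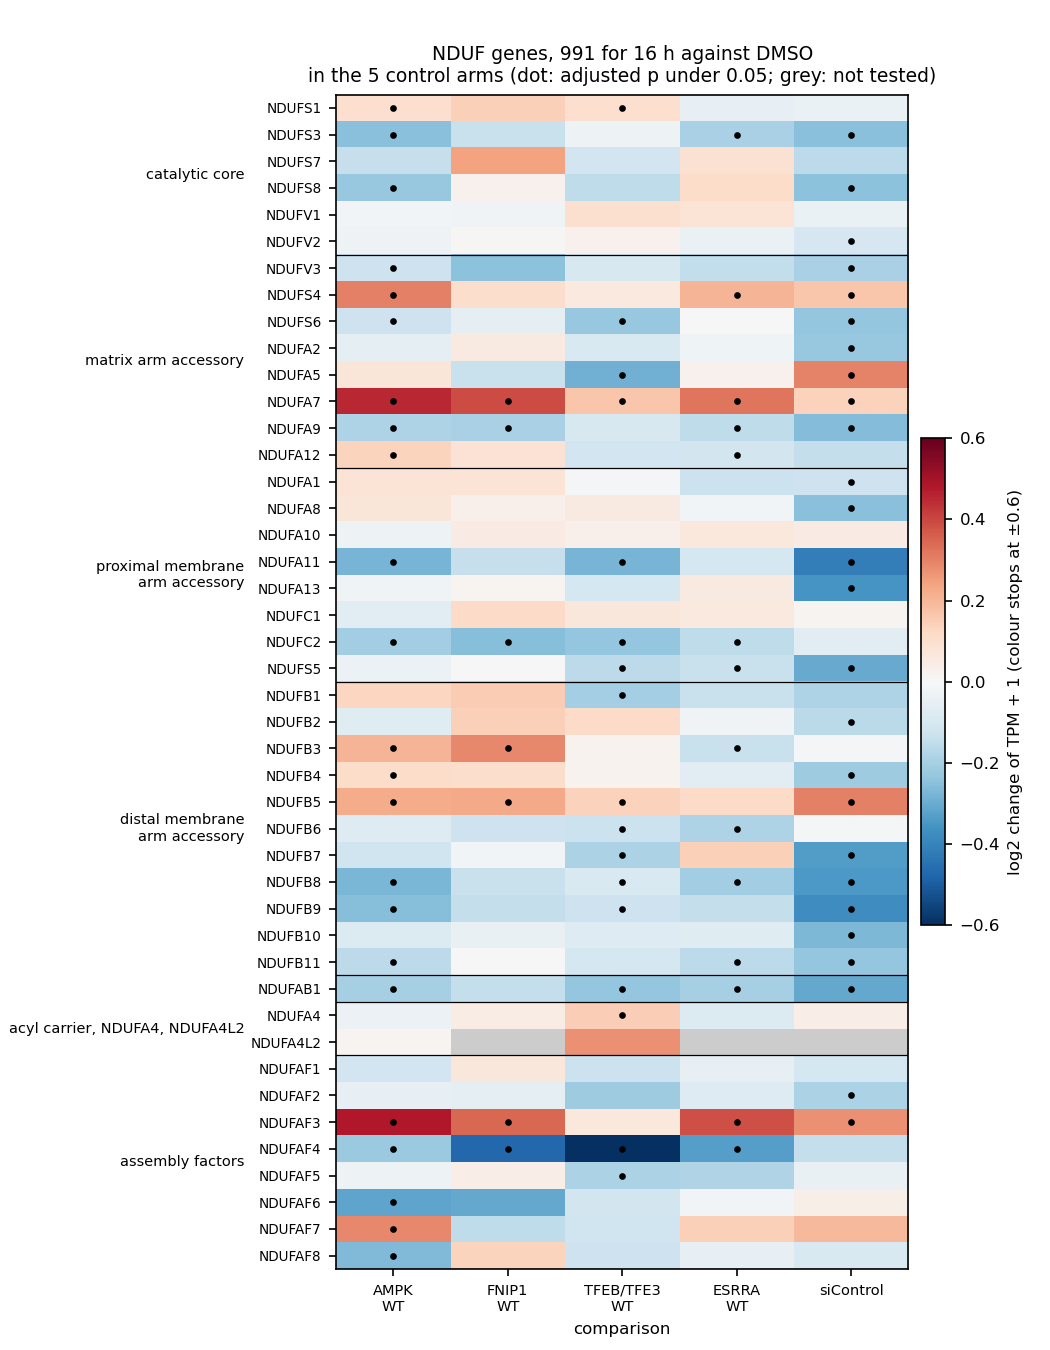
Log2 change of TPM + 1 with 991 at 16 h against DMSO for 44 NDUF genes (rows, by role) in the 5 control arms (columns); colour stops at 0.6 either way, dots mark an adjusted p under 0.05, and grey marks NDUFA4L2 where it was not tested. NDUFA7 is called higher in all 5 columns (not so under the median ratio in FNIP1 WT, TFEB/TFE3 WT and siControl cells), and NDUFA9, NDUFAB1, NDUFAF4, NDUFB8 and NDUFC2 are called lower in 4.

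At 24 h of 991 the WT cells of the TFEB/TFE3 table had 5 members higher and 15 lower (39.8% and 17.2% of all genes), and the DKO cells 10 and 2 (27.6% and 12.6%). The median ratio gave 2 and 31 in WT cells and turned the split in DKO cells to 1 and 8. Over all genes it gave 3632 and 3942, and 2395 and 2860. Quantile normalization gave 4 and 9 in WT and 11 and 2 in DKO cells. Over all genes it gave 3623 and 3271, and 2451 and 2404. The responses themselves differed in 6 members, 5 higher and 1 lower in DKO, where 4.98% of all genes tested were higher and 9.71% lower. For these differences the median ratio gave 9 and 0, and 1128 and 965 over all genes.

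NDUFS6, a zinc-binding matrix arm subunit, went from 138, 146 and 130.0 TPM to 120.5, 109.6 and 107 TPM in WT cells and from 99.4, 103 and 101.7 TPM to 113, 114 and 117 TPM in DKO cells. It was lower with 991 in every WT library and higher in every DKO library, and the responses differed by 0.47 ± 0.08, limma adjusted p = 1.8e-04. NDUFB1 went from the DMSO levels above to 107, 108 and 109 TPM in WT and 98.8, 101.2 and 90.6 TPM in DKO cells, with the same pattern (0.43 ± 0.08, limma adjusted p = 6.2e-04). The DMSO libraries behind the lower DKO levels given above also enter these differences. NDUFA9 went from 67.2, 59.2 and 58.2 TPM to 58.1, 57.9 and 58.6 TPM in WT cells, which overlapped, and from 59.6, 57.2 and 61.1 TPM to 46.8, 53.1 and 48.1 TPM in DKO cells, all lower (-0.19 ± 0.06, limma adjusted p = 0.048). This last call was lost without replicate 1 or 3 of every group (-0.21 and -0.11) and with the replicate block. Without replicate 1 or replicate 3, 3 members had a higher response.

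In the ESRRA, PGC1A and FNIP1 tables no member passed the test of a difference in response at the last time. In ESRRA WT cells 4 members were higher and 8 lower at 24 h (24.9% and 15.4% of all genes), and in KO cells 2 and 6 (24.2% and 13.2%). The median ratio gave 3 and 14 in WT and 1 and 13 in KO cells. Over all genes it gave 2575 and 2754, and 2403 and 2457. Quantile normalization gave 8 and 7 in WT cells, and 2582 and 2468 over all genes. Without each replicate number in turn 2 to 5 members were lower in WT cells. The difference between the responses was called by limma in 0 members (0.523% and 0.762% of all genes). At an unadjusted p under 0.05 there were 1890 of all 13378 genes and 4 of the 44 members. NDUFA7 is an example, with -0.25 ± 0.08.

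With siControl, 991 for 24 h gave 3 members higher and 24 lower (39% and 10.9% of all genes; medians -0.178 and 0.141), and with siPGC1A 1 and 23 (38.6% and 11.4%). NDUFB8 (-0.36 and -0.36) and NDUFB9 (-0.37 and -0.34), both distal arm subunits, had the largest falls among subunits with siControl and siPGC1A. Complexes II to V had 27 of 38 lower and 0 higher with siControl. The median ratio gave 0 and 35 with siControl and 0 and 36 with siPGC1A, and quantile normalization 3 and 19 and 2 and 14. Over all 13404 genes the median ratio called 3114 and 3192 lower, and quantile normalization 2317 and 2394. The responses were called different by limma in 0 members (0% and 0.0671% of all genes). At an unadjusted p under 0.05 there were 1041 of all 13404 genes and 5 of the 44 members.

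In the FNIP1 table SA5 cells had 6 members higher and 10 lower with 991 at 16 h (39.2% and 5.76% of all genes). Without the DMSO library that stands apart the counts were 4 and 4, and without it and the 8 h library 8 and 8. Without each replicate number in turn 1 to 8 were lower. The median ratio gave 1 and 24, and 2201 and 2631 over all genes. In FNIP1 WT cells the 3 lower calls became 5 without that DMSO library, 9 without replicate 1 of every group, and 0 without replicate 2 or 3. The responses were called different in limma in 0 members (0.00751% of all genes in each direction). At an unadjusted p under 0.05 there were 1094 of all 13317 genes and 3 of the 44 members. Without that DMSO library 0 members were called and 2 were at an unadjusted p under 0.05. The count over all genes is not given for that fit. NDUFAF4 was at -0.47 ± 0.11 in WT and -0.30 ± 0.11 in SA5 cells, and at -0.43 ± 0.10 in SA5 cells without that library.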

How the data were processed

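Poly(A) RNA was measured in 240 libraries. Per the submitters' processing notes, reads were handled with FastQC, STAR and HOMER on GRCh38, with versions and settings not given in the sources used here. The authors deposited TPM values in 5 tables, per the file headers. TPM keeps no depth, so the depth behind a value is unknown, and the rows of a library summed to between 396341 and 449208 TPM.

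A gene was tested in a table where 3 or more of its libraries held 1 TPM. limma 3.58.1 (R 4.3.3) was fitted to log2(TPM + 1) with 1 mean per group over all groups of a table and a trend in the prior variance. Adjusted p-values follow Benjamini and Hochberg over all genes of a comparison, called under 0.05. The fit was also run on simulated data with independent noise around group means and 1 spread per gene. That run held no library or replicate effects and cannot speak to them. Members, lists and roles were chosen with earlier results of these data known.

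Genes given per library were, for each compound at 16 h in AMPK WT cells, the 3 largest called rises and falls, and up to 2 each way for each arm comparison and for Phen against Rot; core subunits and assembly factors were named in addition. Alternatives were a replicate block, a fit of only the groups compared, leaving out libraries, no filter, a pseudocount of 0.1, quantile normalization and median-ratio scaling.

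Same-numbered libraries correlated above 0.1 throughout in 8 of 83 comparisons. Among these were AMPK KO against WT under DMSO (0.64, 0.52 and 0.19) and Phen against CCCP at 16 h (0.149, 0.113 and 0.146). Numbers were not taken as pairs, and a replicate block was run as an alternative. No library was identical to another. 1 member is counted with its group but not reported by name here. Promoters came from RefSeq (GRCh38.p14).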

Additional observations from a re-analysis of the deposited data

Results flagged for a closer look

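The response to a compound was called different between the arms of a table in 12 named cases, with 3 libraries a group. The calls come from limma's test of the difference itself on log2(TPM + 1). For NDUFA4L2 the call is not taken as a test, for the reason given below. In the AMPK table the response to 991 at 16 h was higher in KO than in WT cells by 0.49 for NDUFA4L2 and by 0.39 for NDUFAF8. For CCCP the KO minus WT difference was -0.25 for NDUFB4, -0.24 for NDUFA12, 0.40 for NDUFA4L2 and 0.34 for NDUFAF8. For Phen it was -0.25 for NDUFV3, 0.33 for NDUFAF6 and 0.31 for NDUFA11. In the TFEB/TFE3 table the DKO minus WT difference with 991 at 24 h was -0.19 for NDUFA9, 0.47 for NDUFS6 and 0.43 for NDUFB1. NDUFS6 and NDUFB1 were lower with 991 in every WT library and higher in every DKO library, though DKO cells also started from a lower level. Of the 12, 8 lost their call in a fit that dropped all libraries of 1 replicate number: NDUFA4L2 and NDUFAF8 for both 991 and CCCP, NDUFV3, NDUFAF6 and NDUFA11 for Phen, and NDUFA9. NDUFA4L2 passed the level filter through groups in which it was high, so its values are a description with no test. Its cases are included in the 12 and the 8 only as listed.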

How the results depend on the processing

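Over 24 counts of members called, a pseudocount of 0.1 moved none by more than 1.5 times. Median-ratio scaling gave 28 members lower with 991 and 33 with CCCP in AMPK WT cells at 16 h, 8 lower in AMPK KO against WT, 10 with a higher 991 response in AMPK KO, 24 lower with 991 in SA5 at 16 h, 31 in TFEB/TFE3 WT at 24 h, 14 in ESRRA WT, 36 with siPGC1A, and 9 with a higher response in DKO. Of 13617 genes in the AMPK table it called 4569 lower with 991, 4700 with CCCP and 2503 in KO against WT. It called 934 of them higher for the 991 response. For the rest, in the order given, it called 2631 of 13317, 3942 of 13746, 2754 of 13378, 3192 of 13404 and 1128 of 13746 genes. Quantile normalization gave 1 called for the Rot response difference, 4 higher in SA5 against WT, 9 lower in TFEB/TFE3 WT at 24 h and 14 with siPGC1A, and turned NDUFAF5 with Phen to -0.081. Over all genes it called 169 higher and 205 lower of 13617 for that response difference, and 477 of 13317 higher in SA5 against WT. It called 3271 of 13746 lower in TFEB/TFE3 WT and 2394 of 13404 with siPGC1A. Fitting only the groups compared gave 9 lower in AMPK KO, 9 in FNIP1 WT, 0 in SA5 at 16 h, 0 higher in SA5 against WT and 10 lower in ESRRA KO. With no filter, 1 was higher in SA5 against WT. For the fit of only the groups compared, the fit with no filter and the fits below, counts over all genes are not given. The cause of these shifts was not tested.

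With the replicate number as a block, 1 member was called for the Rot response difference; the other 23 counts stayed within 1.5 times, and NDUFA9 lost its call for the DKO response. Libraries of 1 number do not share a stated source.

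Without each replicate number in turn, counts ran from 9 to 16 (AMPK KO against WT, lower), 1 to 10 (Phen response), 2 to 5 (991 response), 7 to 15 (CCCP response), 0 to 9 (FNIP1 WT), 1 to 8 (SA5 at 16 h), 3 to 6 (DKO response), 2 to 5 (ESRRA WT at 24 h), 7 to 15 (ESRRA KO), 15 to 16 (siPGC1A at 24 h) and 3 to 9 (siPGC1A against siControl). SA5 against WT was 0 in each, and 2 without both SA5 libraries that stand apart. As alternatives chosen after seeing the data, leaving out replicate 1 of SA5 under DMSO gave 5 lower in FNIP1 WT, 4 in SA5 and 0 higher in SA5 against WT, and leaving out both gave 9 in FNIP1 WT.

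Of 55 named changes under these settings, 499 values were computed: 452 kept direction and side of the threshold, 46 kept direction but lost the call, and 1 reversed. All settings run left 41 changes past the threshold. TPM carries no read depth, so no interval for counting error is given.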
